A study of Mus musculus with 15 samples.

Results

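The 40 antiviral interferon-stimulated genes followed here are a list of effectors and sensors that cells switch on against viruses, compared in murine bone-marrow-derived macrophages (BMDMs) over 5 conditions. They were matched by gene symbol, and all 40 were found among the 51763 Ensembl gene identifiers of the count table (mouse genome build GRCm38). Bone marrow of 5 wild-type female C57BL/6NTac mice of 8 to 10 weeks of age was matured with macrophage colony-stimulating factor and pooled before seeding. The cells were then stimulated for 24 h. PBS was the unstimulated control. HMGB1 was given at 5 µg/mL, either in its fully reduced form (frHMGB1) or with a disulfide bond (dsHMGB1). LPS was given alone at 1 µg/mL, or together with IFNγ at 20 ng/mL, the stimulus for a classical M1 phenotype (LPS/IFNγ). Each condition had 3 libraries, 15 in all. Because the cells came from 1 pool, these replicates are technical, and every p-value below measures only the spread between cultures and libraries of that pool. The LPS concentration in LPS/IFNγ was given as 100 ng/mL in the treatment protocol and as 1 µg/mL in the treatment field of the sample labels. The presence of IFNγ and a different LPS dose can therefore not be told apart in any comparison of LPS/IFNγ with LPS.

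HMGB1 is a nuclear DNA-binding protein that acts as an alarmin when it leaves the cell, and its disulfide form, like bacterial LPS, is a ligand of TLR4. In macrophages TLR4 signals through the adaptors TRAM and TRIF to the transcription factor IRF3, which induces the gene for IFN-β. Secreted type I interferon binds its receptor on the same and on neighbouring cells, and a complex that contains STAT2 and IRF9 then binds the interferon-stimulated response element (ISRE) in the promoters of antiviral genes. IFNγ uses another receptor, and its signal reaches genes through the gamma-activated site (GAS). The antiviral genes code for proteins that sense foreign RNA or DNA, degrade it, block its translation, or stop virus entry, copying and release.

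Depth was high in each library, with 40934540 to 80925478 counts. PBS replicate 3 stood apart, with a Pearson correlation of log2(CPM + 1), where CPM are counts scaled to the library total, of 0.97 to 0.973 with the other PBS libraries against 0.997 to 0.999 for other replicate pairs. Processed pseudogenes took 0.805 to 1.49% of its condition's counts, with the highest value in that library, and 0.481 to 0.833% in the other conditions. Of the 39 antiviral genes that could be tested, PBS replicate 3 had the lowest of the PBS values for 17 and the highest for 19. The 8 macrophage markers, such as *Lyz2*, *Csf1r* and *Adgre1*, summed to 21895 to 26183 CPM in PBS and 27010 to 27281 in frHMGB1. They summed to 19554 to 21038 in dsHMGB1, 16137 to 16844 in LPS and 13520 to 13865 in LPS/IFNγ. Most of each sum was *Lyz2*. The markers did not move together: in LPS/IFNγ 4 were called higher than PBS and 2 lower, where 29.0 and 31.2% of all genes tested were. All 3 erythroid markers were at 0 throughout, and the 5 lymphocyte markers summed to at most 0.152 CPM. Of 5 markers of plasmacytoid dendritic cells, which are strong interferon producers, *Siglech* and *Ly6d* were too low to test, and the list summed to 44.7 to 63.1 CPM in PBS and 130 to 220 in dsHMGB1, LPS and LPS/IFNγ. Nearly all of that sum was *Tcf4*. Markers of conventional dendritic cells, of which *Flt3* was too low to test, summed to 4.11 to 5.17 CPM in PBS, 3.35 to 4.19 in dsHMGB1, 7.81 to 8.62 in LPS and 13.8 to 15 in LPS/IFNγ. The 5 fibroblast markers, such as *Col1a1*, summed to 118 to 282 CPM in PBS and 189 to 239 in the 3 potent stimuli. The lowest PBS sum was that of replicate 3, and PBS replicates 1 and 2 lay above all LPS and LPS/IFNγ libraries. In LPS and in LPS/IFNγ 4 of the 5 were called higher than PBS, where 26.7 and 29.0% of all genes tested were. Neutrophil markers summed to at most 5.47 CPM. The part of these cell types in the results was not tested.

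The promoters were searched for an exact core of the element in the bases next to the start. RefSeq promoter windows (GRCm38.p6, 250 bases before and 50 bases after a transcription start) were matched for 31 of the 40 genes. They were searched on both strands for the ISRE core GAAANNGAAA, which reads TTTCNNTTTC on the opposite strand, and for the GAS TTCNNNGAA, which reads the same on both. Copies were allowed to overlap. The ISRE core was found for 15 of the 31 genes (48.4%), against 3.99% of 27025 genes in the whole RefSeq table. The GAS was found for 8 of the 31 (25.8%), against 9.55%. A match describes the letters in the window and does not show that a factor bound there. A missing match means only that this exact core was not in the window, and genes without a window were not searched.

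Shown here are stretches of *Ifit1*, *Ifit3*, *Ifit3b*, *Isg15* and *Rsad2*, which hold an ISRE core and recur in the contrasts described further on. *Oas1a* and *Oas1g* are shown as a pair of near copies. The core is in capitals, and each stretch reads 5′ to 3′ along the gene's strand. *Ifit1* is from chr19:34640759-34640838 on the plus strand, *Ifit3* from chr19:34583349-34583428 and *Ifit3b* from chr19:34607745-34607824, both on the plus strand. *Isg15* is from chr4:156200849-156200928, *Rsad2* from chr12:26456523-26456602, *Oas1a* from chr5:120907528-120907585 and *Oas1g* from chr5:120887614-120887671, these 4 on the minus strand.
Ifit1: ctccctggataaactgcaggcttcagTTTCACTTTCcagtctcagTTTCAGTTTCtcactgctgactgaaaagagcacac
Ifit3: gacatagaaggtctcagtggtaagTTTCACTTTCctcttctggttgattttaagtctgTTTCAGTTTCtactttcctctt
Ifit3b: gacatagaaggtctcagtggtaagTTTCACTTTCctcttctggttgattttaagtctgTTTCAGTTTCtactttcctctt
Isg15: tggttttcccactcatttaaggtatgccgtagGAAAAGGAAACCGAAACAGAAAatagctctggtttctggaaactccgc
Rsad2: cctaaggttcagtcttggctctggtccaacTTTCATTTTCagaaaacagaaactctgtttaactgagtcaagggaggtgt
Oas1a: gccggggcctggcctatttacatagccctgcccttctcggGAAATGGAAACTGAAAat
Oas1g: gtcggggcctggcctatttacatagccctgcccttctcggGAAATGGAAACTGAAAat
*Ifit1*, *Ifit3* and *Ifit3b* each hold 2 separate cores, read on the opposite strand. In *Isg15* 3 cores overlap in 1 run, and in *Oas1a* and *Oas1g* 2 cores do. The printed stretches of *Ifit3* and *Ifit3b* were identical in 80 of 80 bases, and those of *Oas1a* and *Oas1g* in 57 of 58. No ISRE core lay in the windows of *Ifit2*, the neighbour of *Ifit3* on chromosome 19. The same held for *Isg20*, *Cmpk2*, *Oasl1* and *Oasl2*, which also recur in the contrasts.

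**Figure D1:**
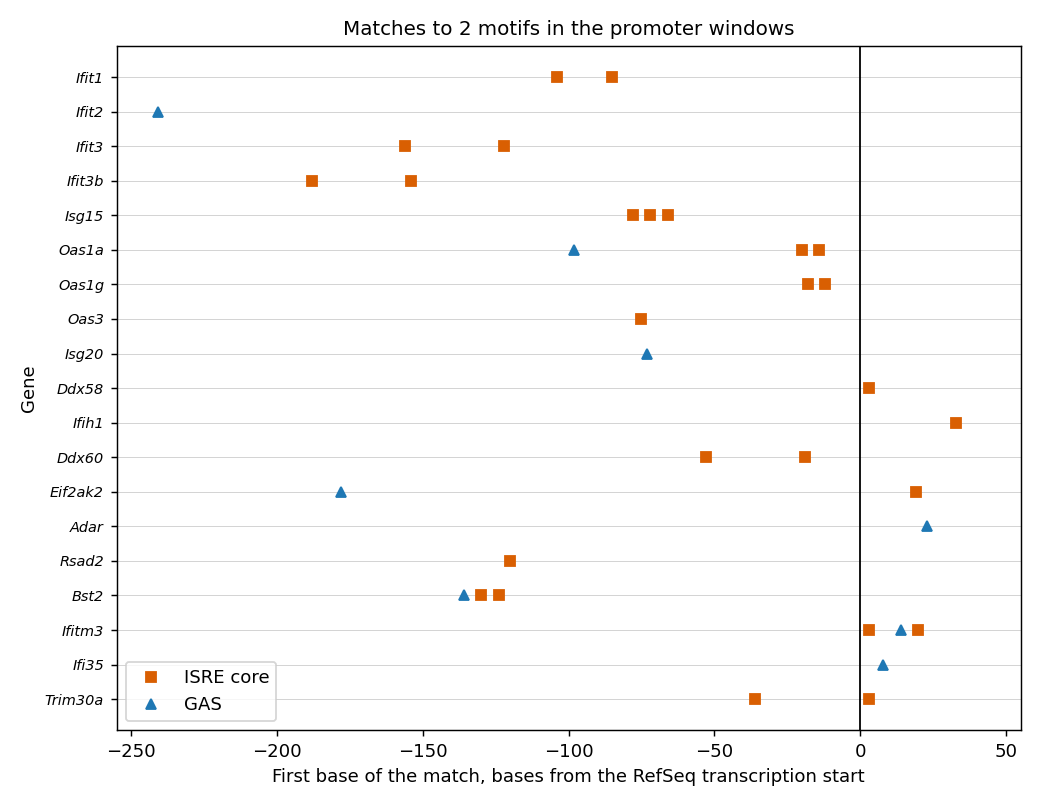
Matches to the ISRE core (squares) and the GAS (triangles) in the RefSeq promoter windows of the antiviral genes with at least 1 match; the x axis gives the first base of the match in bases from the transcription start, and each row is a gene. *Ifit1*, *Ifit3*, *Ifit3b*, *Isg15* and *Rsad2* have their ISRE cores before the start, while those of *Ddx58*, *Ifih1*, *Eif2ak2* and *Ifitm3* lie in the 50 bases after it.

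All 39 antiviral genes that could be tested were higher than in PBS after stimulation with dsHMGB1, LPS or LPS/IFNγ. Their 39 genes together took 0.151 to 0.19% of all counts in the PBS libraries, 3.3 to 3.73% in dsHMGB1, 4.6 to 4.81% in LPS and 3.03 to 3.17% in LPS/IFNγ. In frHMGB1 the share was 0.165 to 0.204%. In LPS, *Rsad2*, *Cmpk2* and *Ifit2* alone held 42.7% of the antiviral counts, against 3.9% in PBS.

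The 40th gene, *Trex1*, which codes for a DNA exonuclease, had 0 counts in all 15 libraries. All 1147 of its exonic bases lie within exons of *Atrip* on the same strand, and *Atrip* had 9131 counts. Reads of such a shared stretch cannot be assigned to 1 gene, so no level is given for *Trex1*.

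A gene is called higher or lower where the quasi-likelihood test of edgeR gave a Benjamini-Hochberg adjusted p under 0.05 over all 16919 genes tested. Levels are DESeq2 normalized counts, which are counts divided by a size factor for each library, and fold changes are unshrunken DESeq2 estimates on the log2 scale with their standard error (SE). In dsHMGB1 against PBS, 39 of 39 antiviral genes were called higher and 0 lower, where 23.3% of all genes tested were called higher and 24.2% lower. The median log2 fold change of the antiviral genes was 4.72, and that of all genes was -0.10. In LPS against PBS, 39 were called higher, with a median log2 fold change of 5.34 beside -0.21 over all genes, of which 26.7% were called higher and 36.2% lower. LPS/IFNγ against PBS also called 39 higher, with a median of 4.65 beside -0.12, where 29.0% of all genes were higher and 31.2% lower. These 3 comparisons share the PBS libraries. For each antiviral gene the 3 stimulated libraries lay above the 3 PBS libraries without overlap, in each of these 3 comparisons, as did 26.2, 29.7 and 33.3% of all genes tested in dsHMGB1, LPS and LPS/IFNγ. The study's cut-off of a log2 fold change of 2 was passed by 37, 39 and 37 of the 39 genes in dsHMGB1, LPS and LPS/IFNγ, and by 8.43, 10.9 and 12.1% of all genes tested.

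**Figure D2:**
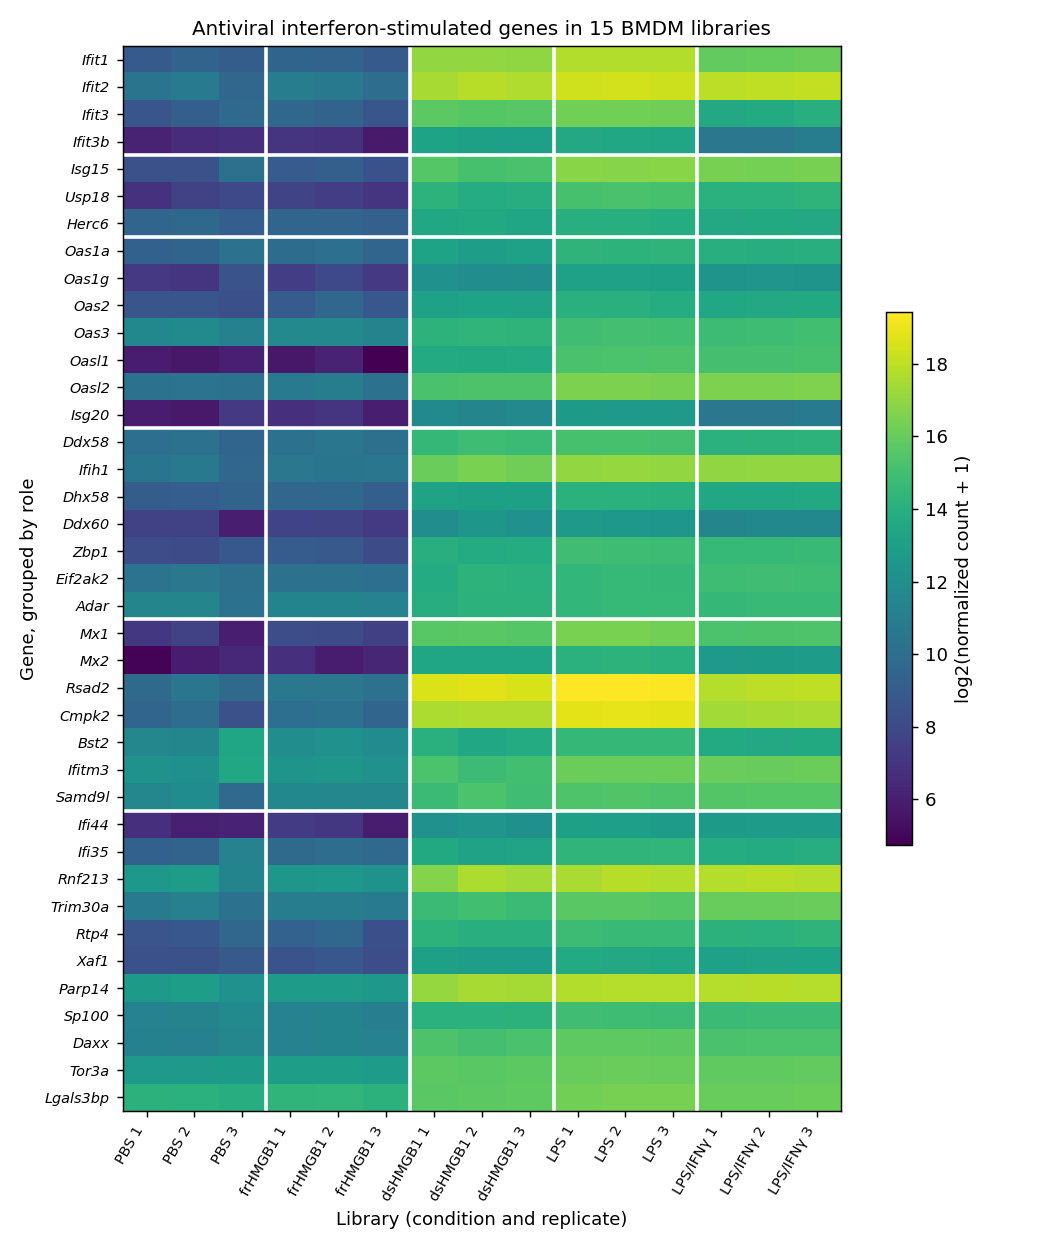
Level of 39 antiviral genes (rows, grouped by role) in the 15 libraries (columns), coloured by log2(normalized count + 1). The 9 columns of dsHMGB1, LPS and LPS/IFNγ are brighter than the 6 columns of PBS and frHMGB1 in each row.

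**Figure D3:**
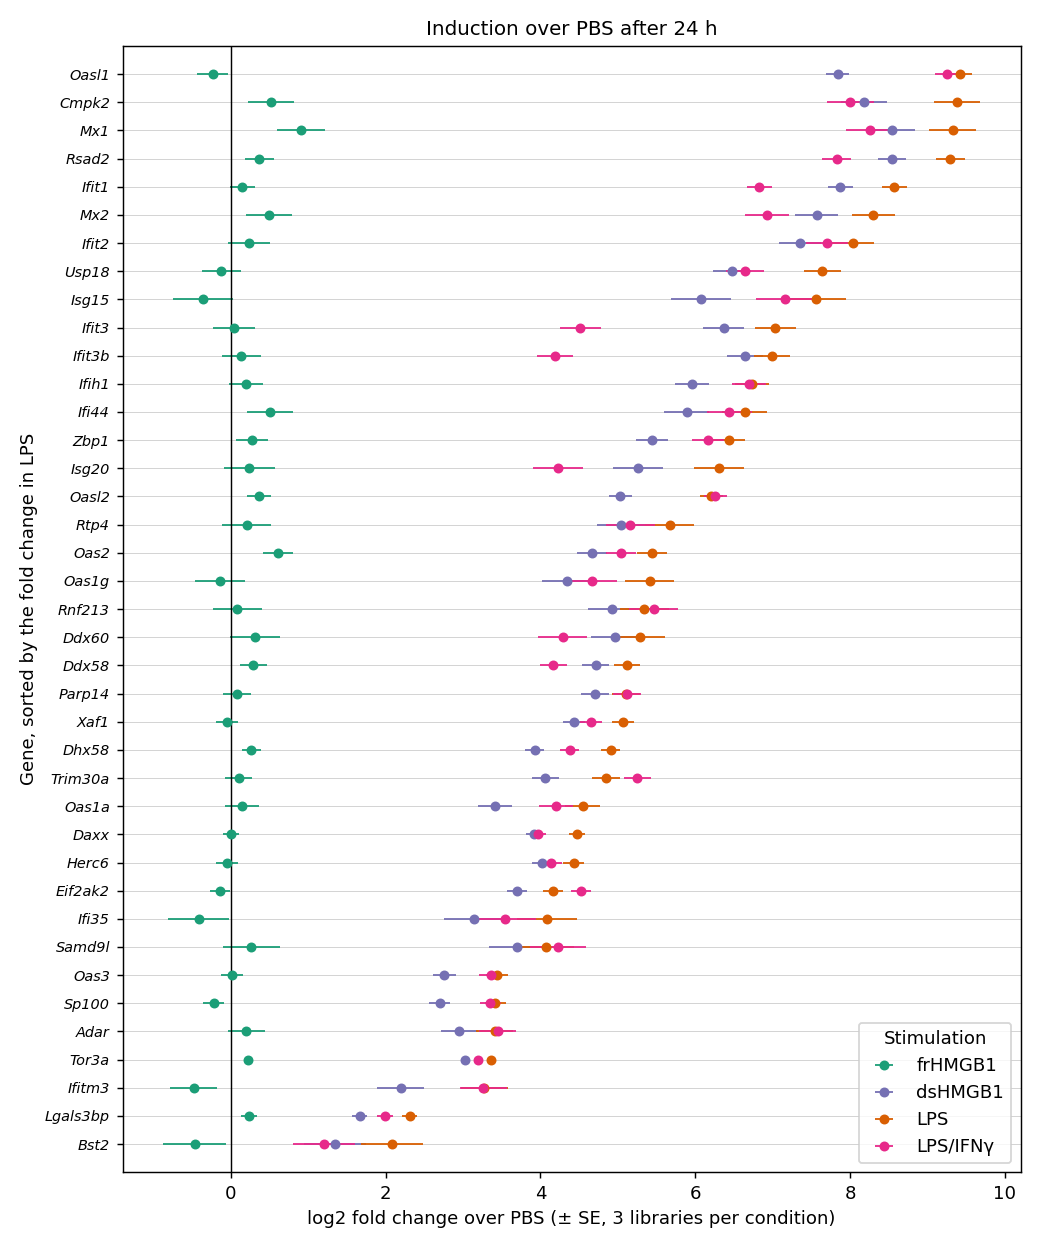
Log2 fold change over PBS (x axis, ± SE, 3 libraries per condition) of each antiviral gene (rows, sorted by LPS) in frHMGB1, dsHMGB1, LPS and LPS/IFNγ. The 3 potent stimuli lie between 1.21 (*Bst2*, LPS/IFNγ) and 9.42 (*Oasl1*, LPS), and frHMGB1 lies between -0.48 (*Ifitm3*) and 0.91 (*Mx1*).

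The IFIT genes code for proteins that bind foreign RNA ends and block translation, and they sit side by side on chromosome 19, between 34550694 (the start of *Ifit2*) and 34650009 (the end of *Ifit1*). *Ifit1* (ENSMUSG00000034459) had 472, 692 and 528 normalized counts in the PBS libraries, 136140, 133225 and 127313 in dsHMGB1, 213609, 215219 and 216594 in LPS and 60883, 63729 and 67816 in LPS/IFNγ. The LPS libraries were the highest and the LPS/IFNγ libraries the lowest of the 3 potent stimuli, with no overlap between any of them. *Ifit1* rose 234-fold in dsHMGB1 over PBS (log2 fold change 7.87 ± 0.16, SE) and 381-fold in LPS.

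*Ifit3* (ENSMUSG00000074896) held 407, 575 and 856 normalized counts in PBS, 54112, 47838 and 49386 in dsHMGB1, 81803, 81794 and 76769.6 in LPS and 12658, 13249 and 16053 in LPS/IFNγ. Its near copy *Ifit3b* (ENSMUSG00000062488) held 71.1, 97.1 and 105 in PBS, 9888, 8807 and 8481 in dsHMGB1, 12294, 11765 and 10446 in LPS and 1543, 1521 and 1894 in LPS/IFNγ. Both copies thus ranked LPS over dsHMGB1 over LPS/IFNγ in all libraries. Of the 50-base words of *Ifit3* transcripts, 51.2% also occur in *Ifit3b*, so the split of reads between these copies is uncertain. *Ifit2* (ENSMUSG00000045932) shared no such word with another gene and behaved differently from its neighbours, with 185864, 230742 and 212600 normalized counts in dsHMGB1, 330650, 349688 and 328467 in LPS and 255204, 268946 and 278611 in LPS/IFNγ over 1332, 1742 and 769 in PBS. Here the LPS/IFNγ libraries lay above those of dsHMGB1.

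*Isg15* codes for a ubiquitin-like protein that is attached to other proteins, *Herc6* for its mouse ligase and *Usp18* for the protease that removes it and restrains the interferon receptor. *Isg15* had 337, 334 and 1145 normalized counts in PBS, 48186, 35646 and 38398 in dsHMGB1, 113006, 112588 and 116779 in LPS and 86884, 84747 and 88277 in LPS/IFNγ. PBS replicate 3 was the high PBS library, and the rise in dsHMGB1 was 67.5-fold with it and 121-fold without it. *Usp18* rose 89.1-fold in dsHMGB1 over PBS, 199.6-fold in LPS and 99.8-fold in LPS/IFNγ. *Herc6* rose far less, by 16.3, 21.5 and 17.7-fold in the same order.

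Oligoadenylate synthetases (OAS) detect double-stranded RNA and make a messenger that activates an RNase, and the OAS-like proteins are relatives with other roles. In dsHMGB1 over PBS the 7 genes of this class that were tested, including the exonuclease *Isg20*, had log2 fold changes between 2.76 (*Oas3*) and 7.84 (*Oasl1*). *Oasl1*, a repressor of IRF7 translation, had only 58.5 ± 6.81 (SD, n = 3) normalized counts in PBS and 13238 ± 383 in dsHMGB1. With 39579 ± 972 in LPS it also had the largest rise of all members in that condition, 684-fold. *Oasl2* went from 1240 ± 53.3 in PBS to 40490.3 ± 1702 in dsHMGB1. *Oas2* and *Oas3* rose 25.4 and 6.78-fold in dsHMGB1.

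*Oas1a* had 631, 701 and 1218 normalized counts in PBS, 971, 1091 and 749 in frHMGB1, 9736, 8102 and 9165 in dsHMGB1, 20183, 19532 and 19642 in LPS and 15559, 15066 and 16053 in LPS/IFNγ. Its near copy *Oas1g* had 144, 129 and 357 in PBS, 170.0, 254 and 143 in frHMGB1, 4564, 3984 and 4130.0 in dsHMGB1, 8955, 8982 and 8667 in LPS and 5092, 5494 and 5268 in LPS/IFNγ. Both ran in the order LPS, LPS/IFNγ, dsHMGB1, with no overlap. They share 57.6% of the 50-base words of *Oas1a*, so their split is uncertain as well. Without PBS replicate 3 the rise of *Oas1g* in dsHMGB1 was 30.9-fold in place of 20.3-fold.

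Among the sensors, *Ddx58* (the gene of RIG-I), *Ifih1* (MDA5) and *Dhx58* (LGP2) code for helicases that recognise viral RNA in the cytoplasm. In PBS they already had 1034 ± 255, 1272 ± 454 and 590.3 ± 73.3 normalized counts (SD, n = 3). *Ifih1* rose most of the 7 sensors, 62.3-fold in dsHMGB1, 107-fold in LPS and 104-fold in LPS/IFNγ. *Zbp1*, a sensor of Z-form nucleic acids that can start necroptosis, rose 43.5-fold in dsHMGB1 and 86.7-fold in LPS. Without PBS replicate 3 the rise in LPS was 101-fold for *Zbp1* and 88.4-fold for *Ifih1*. *Ddx60* rose 31.3-fold in dsHMGB1 from 152 ± 79.1 normalized counts in PBS. The smallest rise of this class in dsHMGB1 was that of *Adar*, an RNA editor that hides the cell's own RNA from the sensors, at 7.75-fold.

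In dsHMGB1, with all libraries in the fit, the effectors held both ends of the range. *Rsad2* codes for viperin, which makes a chain-terminating nucleotide, and *Cmpk2* for the kinase next to it on chromosome 12 that supplies its substrate. *Rsad2* had 899, 1461 and 901 normalized counts in PBS, 1558, 1494 and 1169 in frHMGB1, 396190, 438702 and 383777 in dsHMGB1, 692035, 700187 and 657609 in LPS and 229405, 249440 and 261397 in LPS/IFNγ. Per kilobase of exon it was the most abundant antiviral transcript in dsHMGB1 (93708 normalized counts per kb) and LPS (157619), whereas in LPS/IFNγ *Isg15* (114598) came first. *Cmpk2* had 746, 1030.4 and 339.7 in PBS, 1122, 1169 and 747 in frHMGB1, 197057, 212265 and 205158 in dsHMGB1, 466235, 480124 and 462732 in LPS and 172610, 181616 and 190601 in LPS/IFNγ. Both genes had their highest 3 libraries in LPS.

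*Mx1* and *Mx2* code for GTPases that block virus copying, and RefSeq lists both as transcribed pseudogenes in the mouse reference genome, which comes from the C57BL/6 strain. *Mx1* had 140.3, 201 and 60.9 normalized counts in PBS, 298, 280.0 and 184 in frHMGB1, 49479, 52869 and 48767 in dsHMGB1, 89532, 91027 and 79853 in LPS and 39479, 41097 and 43357 in LPS/IFNγ. With all libraries in the fit, *Mx1* and *Rsad2* shared the largest rise in dsHMGB1, 372-fold for *Mx1* and 373-fold for *Rsad2*. *Cmpk2* came next at 289.8-fold, and *Mx2* rose 190.0-fold. Without PBS replicate 3 the order changed. *Rsad2* then rose 343-fold, *Mx1* 294-fold, *Mx2* 244-fold, *Oasl1* 238-fold and *Cmpk2* 230-fold.

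With all libraries in the fit the smallest rise in all 3 potent stimuli was that of *Bst2*, which codes for tetherin, a protein that holds budding virus on the cell. Its values were 2958, 2878 and 11022 in PBS, 17411, 11649.8 and 13857 in dsHMGB1, 23793, 23519 and 23887 in LPS and 13304, 12577 and 13104 in LPS/IFNγ. PBS replicate 3 nearly reached the stimulated libraries, and without it the log2 fold change in dsHMGB1 was 2.29 in place of 1.35 ± 0.40 (SE). Without that library *Lgals3bp* rose least in all 3 stimuli, with log2 fold changes of 1.57, 2.21 and 1.89 against 2.29, 3.02 and 2.14 for *Bst2* in dsHMGB1, LPS and LPS/IFNγ. *Ifitm3*, which blocks virus entry at the endosome, stood at 7228 ± 4285 normalized counts (SD, n = 3) in PBS and at 69943 ± 1901 in LPS. *Ifitm3* was also high in PBS replicate 3, and its rise in dsHMGB1 was 4.59-fold with that library and 6.95-fold without it. Across the 39 genes, leaving out PBS replicate 3 moved the fold over PBS by more than 1.5 times for 6 genes in dsHMGB1 (*Isg15*, *Isg20*, *Oas1g*, *Bst2*, *Ifitm3* and *Ifi35*) and for 5 of those in LPS and in LPS/IFNγ, all but *Isg20*.

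The remaining 11 genes have regulatory or less settled roles. Their log2 fold changes in dsHMGB1 ran from 1.66 for *Lgals3bp*, which was already at 17141 ± 2007 normalized counts in PBS, to 5.89 for *Ifi44*. *Parp14* and *Rnf213*, large enzymes that modify proteins with ADP-ribose or ubiquitin, rose 26 and 30.4-fold. *Daxx* and *Sp100*, components of nuclear bodies that silence foreign DNA, rose 15.1 and 6.49-fold. *Rtp4*, *Xaf1* and *Ifi35* rose 33, 21.7 and 8.83-fold, the last with and 16.7-fold without PBS replicate 3.

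The condition with the highest mean normalized count was LPS for 32 of the 39 genes and LPS/IFNγ for the other 7, which were *Oasl2*, *Eif2ak2*, *Trim30a*, *Parp14*, *Rnf213*, *Samd9l* and *Adar*. PBS, frHMGB1 and dsHMGB1 led none. This split is made from the values and carries no test of its own. It moved to 31 to 33 genes led by LPS when single libraries were left out, and by mean log2 CPM *Ddx60* was led by dsHMGB1.

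**Figure D4:**
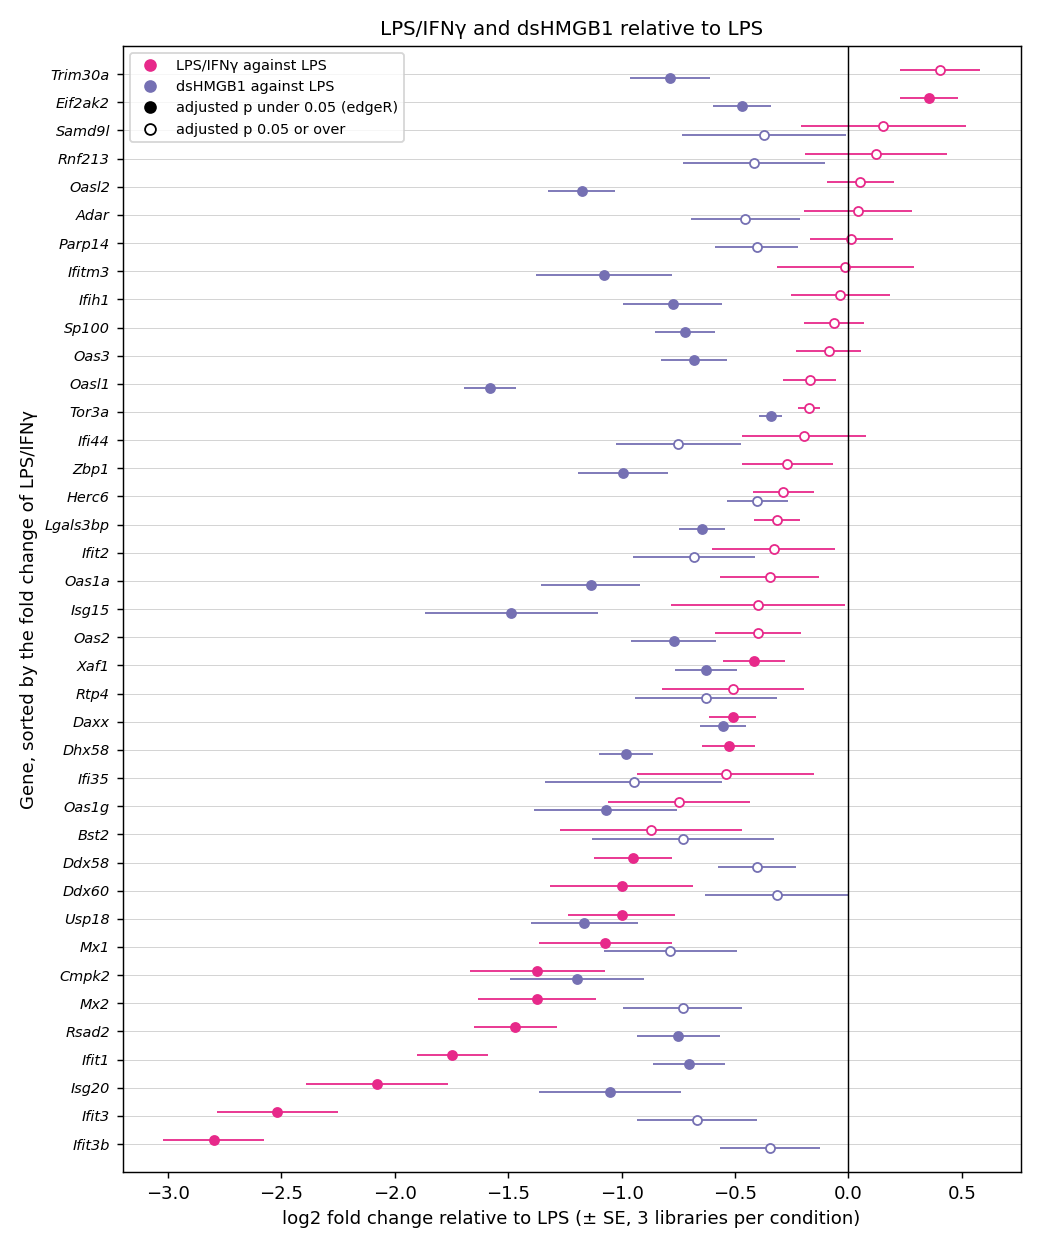
Log2 fold change relative to LPS (x axis, ± SE, 3 libraries per condition) of LPS/IFNγ and dsHMGB1 for each antiviral gene (rows, sorted by LPS/IFNγ); filled points had an edgeR adjusted p under 0.05. LPS/IFNγ runs from -2.80 (*Ifit3b*) to 0.40 (*Trim30a*), and the dsHMGB1 points all lie below 0.

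LPS/IFNγ was compared with LPS directly, with the limit that the LPS dose may differ between them as well as the presence of IFNγ. Of the 39 genes, 14 were called lower in LPS/IFNγ and 1 higher, where 9.36% of all genes tested were called lower and 16.3% higher. The median log2 fold change of the antiviral genes was -0.40, and that of all genes was 0.0025. The LPS/IFNγ libraries lay below the LPS libraries without overlap for 27 of the 39 genes and above them for 3, where 29.1% of all genes lay below and 31.4% above. Without PBS replicate 3, which is in neither condition but adds to the shared estimate of the spread, 25 genes were called lower, where 24.3% of all genes were.

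The IFIT genes, the effectors and *Isg20* held the largest falls. *Ifit3b* fell 6.96-fold (log2 fold change -2.80 ± 0.22, SE, adjusted p = 1.69e-06 by edgeR) and *Ifit3* 5.73-fold (-2.52 ± 0.27). *Isg20*, which codes for an RNA exonuclease, had 56.9, 53.6 and 144 normalized counts in PBS, 3520.5, 2783 and 3262 in dsHMGB1, 6860.4, 6698 and 6257 in LPS and 1491, 1486 and 1717 in LPS/IFNγ. Its LPS/IFNγ libraries lay below those of LPS and of dsHMGB1, and it fell 4.22-fold from LPS (adjusted p = 0.000158 by edgeR). *Ifit1* fell 3.35-fold (-1.75 ± 0.16). *Ifit2* was the exception among the IFIT genes, with a log2 fold change of -0.33 ± 0.27 (SE) that did not pass the test, although its 3 LPS/IFNγ libraries lay below the 3 LPS libraries.

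Of the 7 effectors, 4 were lower in LPS/IFNγ than in LPS: *Rsad2* 2.77-fold, *Mx2* 2.59-fold, *Cmpk2* 2.59-fold and *Mx1* 2.1-fold. The log2 fold change of *Ifitm3* was -0.01 ± 0.30 (SE), of *Samd9l* 0.15 ± 0.36 and of *Bst2* -0.87 ± 0.40, and none of these passed the test. The LPS/IFNγ libraries lay below those of LPS without overlap for *Bst2* and above them for *Samd9l*. Without PBS replicate 3 only *Bst2* of these was called (adjusted p = 1.7e-06 by edgeR). Among the sensors *Ddx58* fell 1.93-fold, *Ddx60* 2-fold and *Dhx58* 1.44-fold, while *Ifih1*, the partner helicase, had a log2 fold change of -0.04 ± 0.22 (SE). *Usp18* fell 2-fold, *Daxx* 1.42-fold and *Xaf1* 1.33-fold. Of the OAS genes none was called, and their log2 fold changes ran from -0.75 (*Oas1g*) to 0.05 (*Oasl2*). The LPS/IFNγ libraries of *Oas1a*, *Oas1g*, *Oas2* and *Oasl1* lay below those of LPS without overlap. Without PBS replicate 3 *Oas1a*, *Oas1g* and *Oas2* were called lower, as 24.3% of all genes were, and *Oas3*, *Oasl1* and *Oasl2* were not called. The calls of *Ddx60*, *Xaf1* and *Mx1* were lost in 9, 8 and 1 of the 15 fits that each left out 1 library, and the other 11 calls were made in all 15.

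*Eif2ak2* was the only gene called higher in LPS/IFNγ than in LPS. It codes for PKR, a kinase that stops translation when it binds double-stranded RNA. It had 1276, 1512 and 1123 normalized counts in PBS, 1226, 1236 and 1090.4 in frHMGB1, 14224, 18889 and 17530.4 in dsHMGB1, 22854, 24115 and 23219 in LPS and 29317, 30721 and 29895 in LPS/IFNγ. The 3 LPS/IFNγ libraries were the highest, and the rise over LPS was 1.28-fold (log2 fold change 0.36 ± 0.13, SE, adjusted p = 0.0425 by edgeR). The call was lost in 12 of the 15 fits that each left out 1 library. *Trim30a*, which codes for a regulator of TLR signalling, had a larger fold, with 52706, 50999.9 and 47463 normalized counts in LPS and 65872, 66583 and 67450.5 in LPS/IFNγ, and did not pass (adjusted p = 0.0908 by edgeR). *Trim30a* was called higher without PBS replicate 2, without PBS replicate 3 and in the fit of the 2 compared conditions alone. The other 5 genes led by LPS/IFNγ had log2 fold changes from 0.01 (*Parp14*) to 0.15 (*Samd9l*), all within 1 SE of 0 with all libraries in the fit. Of these, *Rnf213* and *Samd9l* were called higher in the fit of the 2 compared conditions alone, where 31% of all genes were.

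**Figure D5:**
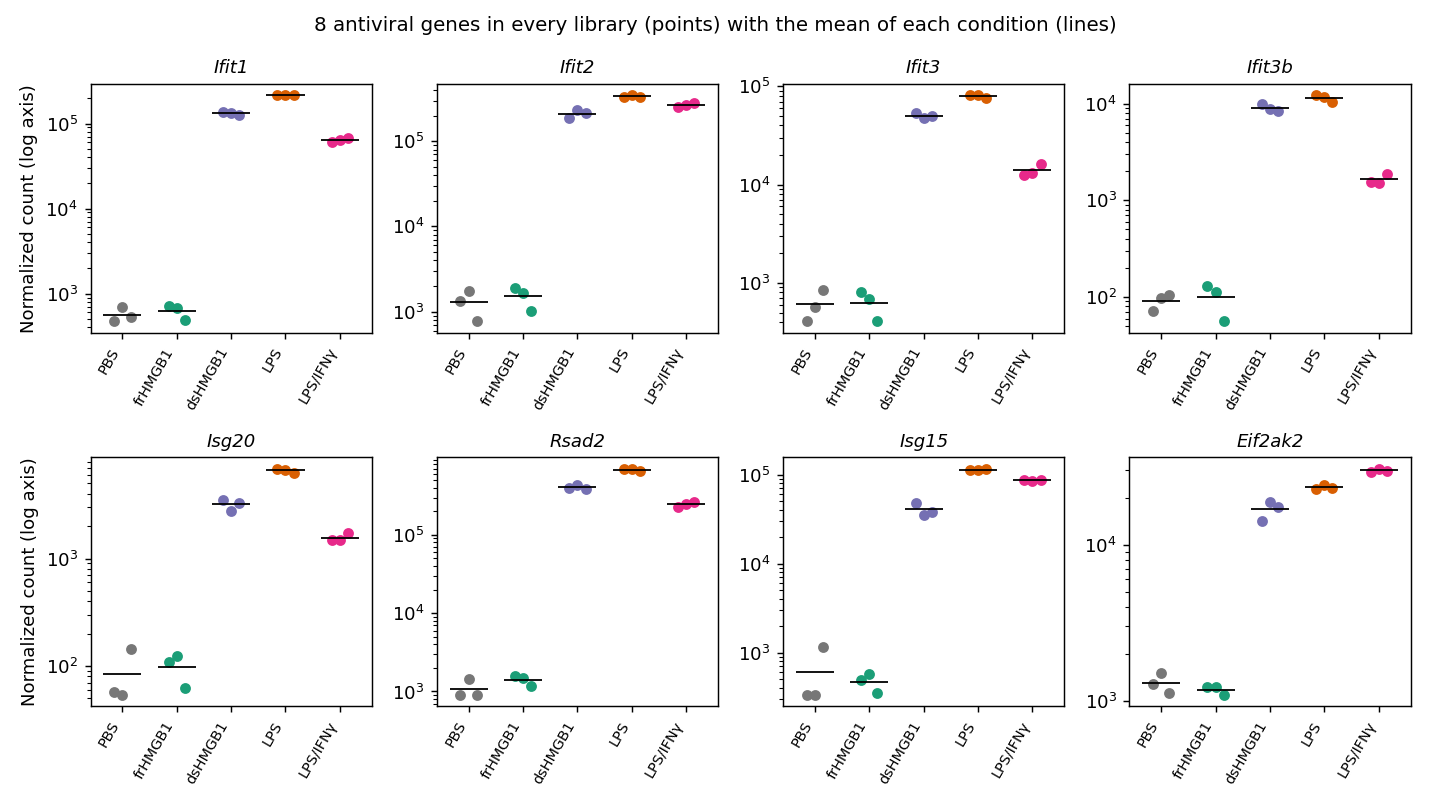
Normalized counts (log axis) of 8 antiviral genes in each of the 15 libraries (points), with the mean of each condition as a line. *Ifit1*, *Ifit3*, *Ifit3b*, *Isg20* and *Rsad2* are lower in LPS/IFNγ than in dsHMGB1, while *Ifit2*, *Isg15* and *Eif2ak2* are higher.

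Promoter letters can be set beside this split. Of the 10 genes called lower in LPS/IFNγ than in LPS that had a promoter window, 6 held an ISRE core, and of 19 that were not called, 8 did. Of the 24 genes led by LPS with a window, 13 held a core, and of the 6 led by LPS/IFNγ, 2 did. The GAS was found for 1 of the 10 and 6 of the 19, and for 6 of the 24 and 2 of the 6. These counts are given as a description.

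dsHMGB1 and LPS, the other pair that meets at TLR4, were compared next. Of the 39 genes, 23 were called lower in dsHMGB1 than in LPS and 0 higher, where 10.6% of all genes tested were lower and 15.8% higher. The median log2 fold change was -0.73, beside 0.015 over all genes, and all 39 estimates were below 0. In 37 genes the dsHMGB1 libraries lay below the LPS libraries without overlap, with *Ddx60* and *Rnf213* as the exceptions, where 26.5% of all genes lay below and 26.4% above. Without PBS replicate 3 all 39 were called lower, where 23.3% of all genes were. On CPM, which moved this comparison by 0.33 on the log2 scale towards dsHMGB1, 38 of the 39 means were still lower in dsHMGB1, all but *Ddx60*.

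The gap was more even from gene to gene than that of LPS/IFNγ to LPS, with a standard deviation of the log2 fold changes over the 39 genes of 0.32 against 0.75. All 7 tested members of the OAS and exonuclease class were called lower. *Oasl1* was 2.99-fold lower in dsHMGB1 than in LPS (log2 fold change -1.58 ± 0.12, SE, adjusted p = 7.87e-05 by edgeR), *Oasl2* 2.26-fold, *Oas1a* 2.2-fold and *Oas3* 1.6-fold. *Isg15* was 2.8-fold lower, *Cmpk2* 2.29-fold, *Usp18* 2.24-fold and *Ifitm3* 2.11-fold. Of the IFIT genes *Ifit1* passed (1.63-fold lower), and *Ifit2*, *Ifit3* and *Ifit3b* had log2 fold changes of -0.68, -0.67 and -0.34. The sensors *Dhx58*, *Zbp1*, *Ifih1* and *Eif2ak2* were 1.97, 1.99, 1.71 and 1.39-fold lower. The calls of *Ifih1* and *Eif2ak2* were each lost in 5 of the 15 fits without 1 library, those of *Isg20* and *Oas1g* in 2 and that of *Ifitm3* in 1, and no other call was lost.

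The gaps to LPS share the LPS libraries, so their values are set side by side with no count of shared calls. *Isg20* lay at a log2 fold change of -2.08 in LPS/IFNγ and -1.05 in dsHMGB1, and *Ifit3b* at -2.80 and -0.34. *Oasl1* leaned the other way, at -0.17 in LPS/IFNγ and -1.58 in dsHMGB1. *Isg15* stood at -0.40 and -1.49 in the same order.

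The difference between dsHMGB1 and LPS/IFNγ was tested directly. Called higher in dsHMGB1 were 6 genes, *Ifit3b*, *Ifit3*, *Ifit1*, *Isg20*, *Rsad2* and *Ddx58*, and 13 were called lower, where 16.5% of all genes tested were higher and 16.7% lower. The dsHMGB1 libraries lay above without overlap for 10 genes and below for 24, where 28.6 and 30.5% of all genes did. *Ifit3b* was 5.48-fold higher in dsHMGB1 (log2 fold change 2.45 ± 0.22, SE, adjusted p = 2e-06 by edgeR), *Ifit3* 3.61-fold, *Ifit1* 2.06-fold, *Isg20* 2.04-fold, *Rsad2* 1.65-fold and *Ddx58* 1.46-fold. In the other direction *Oasl1* was 2.66-fold lower in dsHMGB1, *Oasl2* 2.34-fold, *Trim30a* 2.28-fold, *Isg15* 2.13-fold, *Ifitm3* 2.09-fold and *Eif2ak2* 1.78-fold. Also lower were *Oas1a*, *Ifih1*, *Zbp1*, *Sp100*, *Oas3*, *Dhx58* and *Lgals3bp*, between 1.26 and 1.73-fold. Among the fits that each left out 1 library, the call of *Lgals3bp* was lost in 12 of 15, those of *Ifih1* and *Isg15* in 5 each and that of *Ddx58* in 4, and no other call was lost. *Adar*, *Bst2*, *Herc6*, *Ifi35*, *Ifi44*, *Ifit2*, *Parp14*, *Rnf213*, *Rtp4* and *Samd9l* were not called in any of the 3 comparisons among dsHMGB1, LPS and LPS/IFNγ. This held only with all libraries in the fit. Without PBS replicate 3 each of them was called lower in dsHMGB1 than in LPS, as all 39 genes were, where 23.3% of all genes were. In that fit *Bst2*, *Herc6*, *Ifi35* and *Rtp4* were also called lower in LPS/IFNγ than in LPS.

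Without PBS replicate 3, 22 genes were called lower in dsHMGB1 than in LPS/IFNγ and 9 higher, where 25.4% and 27.9% of all genes were. By normalized counts the mean was lower in dsHMGB1 for 28 genes, and by CPM, a shift of 0.32 on the log2 scale, for 21. The 7 genes that changed side were *Oas1g*, *Usp18*, *Xaf1*, *Rtp4*, *Herc6*, *Tor3a* and *Daxx*, none of them called.

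In frHMGB1 the antiviral genes lay near PBS. Of the 39 genes 1, *Tor3a*, was called higher and 0 lower, where 1.31% of all genes tested were called higher and 5.69% lower. At an unadjusted p under 0.05 edgeR had 6 genes, *Dhx58*, *Lgals3bp*, *Mx1*, *Oas2*, *Oasl2* and *Tor3a*, and DESeq2's Wald test called 3 after adjustment. The median log2 fold change was 0.15, beside -0.0079 over all genes.

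*Tor3a*, which codes for an ATPase of the endoplasmic reticulum, had 6385, 6391 and 6904 normalized counts in PBS, 7721, 7883 and 7395 in frHMGB1, 54308, 51336 and 53961 in dsHMGB1, 66904, 68479.5 and 67027 in LPS and 59087, 58952 and 61555 in LPS/IFNγ. Its frHMGB1 libraries lay above the PBS libraries by 1.17-fold (log2 fold change 0.23 ± 0.05, SE, adjusted p = 0.0493 by edgeR). The call was lost in 13 of the 15 fits without 1 library. *Oas2* was the other gene whose frHMGB1 libraries all lay above PBS, as 9.74% of all genes did (515, 782 and 423 against 402, 402 and 321), with an adjusted p of 0.073 by edgeR. *Mx1* had the largest estimate, 0.91 ± 0.30 (SE), and its libraries overlapped. Without PBS replicate 3, 11 genes were called higher in frHMGB1, with log2 fold changes of 0.27 to 0.86, where 8.41% of all genes were. In the same fit *Isg15*, *Bst2* and *Ifi35* changed from estimates of -0.36, -0.47 and -0.41 to 0.49, 0.48 and 0.52.

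Genes that induce, transmit or restrain the interferon response were taken from 2 further lists. Of 24 induction and signalling genes 22 were tested, and 17 were called higher in dsHMGB1 than in PBS, 18 in LPS and 17 in LPS/IFNγ, with 0, 0 and 4 lower, where 23.3, 26.7 and 29.0% of all genes were higher and 24.2, 36.2 and 31.2% lower. *Ifnb1*, the gene for IFN-β, had 2.59, 1.26 and 0 normalized counts in PBS, 572, 429.9 and 417 in dsHMGB1, 1550.0, 1974 and 1770.4 in LPS and 2964, 3283 and 3145 in LPS/IFNγ. It was thus highest in LPS/IFNγ, 1.77-fold over LPS (adjusted p = 0.0284 by edgeR), and was 3.73-fold lower in dsHMGB1 than in LPS. Against that order, *Irf9* had 5865, 5589.8 and 5715 in dsHMGB1, 8004, 8058 and 8050.4 in LPS and 4284, 4306 and 4329 in LPS/IFNγ, the lowest of the 3.

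Between LPS/IFNγ and LPS, 2 of the 22 were called higher (*Ifnb1* and *Irf8*) and 7 lower, where 16.3% of all genes were higher and 9.36% lower. The 7 were *Ticam2* (the gene of TRAM), *Irf7*, *Tlr4*, *Irf9*, *Ifnar1*, *Ifngr1* and *Ifngr2*. *Irf7*, which amplifies interferon production, was 1.89-fold lower, *Irf9* 1.87-fold and *Ifnar1*, a chain of the type I interferon receptor, 1.8-fold. *Stat2* had a log2 fold change of -0.34 ± 0.13 (SE) that did not pass. Of the 7 restraint genes, among which *Usp18* is also one of the 40 antiviral genes, *Socs1* was higher in LPS/IFNγ than in LPS (1.75-fold) and *Usp18* and *Irf2bp2* were lower. Between dsHMGB1 and LPS, 10 of the 22 induction and signalling genes were lower, among them *Ifnb1*, *Irf7*, *Irf9*, *Ifnar1* and *Ifnar2*, and 2 were higher, *Ifngr1* and *Ticam2*, where 10.6% of all genes were lower and 15.8% higher.

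Relatives of the antiviral genes outside the list were counted as well. Of 22 relatives 21 were tested. In each of dsHMGB1, LPS and LPS/IFNγ 18 were called higher than PBS, with 0, 1 and 1 lower. Of all genes 23.3, 26.7 and 29.0% were higher and 24.2, 36.2 and 31.2% lower in the same order. Between LPS/IFNγ and LPS 6 relatives were lower and 1 was higher, beside 9.36 and 16.3% of all genes. The lower ones were *Ifit1bl1* (4.69-fold), *Oas1b*, *Parp10*, *Oas1c*, *Uba7* and *Sp140*, and the higher one was *Ifitm1* (2.09-fold). Of 12 genes known to follow IFNγ, 7 were higher in LPS/IFNγ than in LPS, led by *Cxcl9* with 33473, 33611 and 30592 normalized counts in LPS and 464495, 448815 and 471211 in LPS/IFNγ, and 1, *H2-Aa*, was lower.

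How far a gene rose in dsHMGB1 and how it differed between LPS/IFNγ and LPS were related across genes. Over the 39 genes the log2 fold change of dsHMGB1 over PBS and that of LPS/IFNγ over LPS, which share no library, had a Pearson correlation of -0.50 and a Spearman correlation of -0.49. Without *Ifit1*, *Ifit3*, *Ifit3b* and *Isg20* these were -0.50 and -0.39 over 35 genes. The points are genes of 1 pathway measured in the same libraries and are not independent, so the values are a description.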

How the data were processed

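Whole-number read counts per gene for 15 libraries were used as deposited. Per the methods of the study and the labels, the authors made stranded libraries of mRNA, read them from both ends and mapped the reads to GRCm38 with STAR. Which program and gene models gave the counts is not stated in those sources. Samples were grouped by their titles. Depth was 40934540 to 80925478 counts per library, and no row or column was left out. Gene names and exons came from GENCODE M21, which holds 51661 of the 51763 identifiers.

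Genes passing filterByExpr (minimum count 10, total 15; 16919 genes) were tested in edgeR 4.0.16 with TMM, all 15 libraries in 1 quasi-likelihood fit without covariates. Normalized counts, fold changes and standard errors came from DESeq2 1.42.0 in R 4.3.3, and figures from Python 3.11.15. Counts were simulated for all 15 libraries, with each real gene at its mean over all conditions. Only genes above a minimum mean count were changed, and only in dsHMGB1. In dsHMGB1 against PBS (16018 genes), 60 of 100 genes changed by 1 on the log2 scale and 95 of 100 changed by 2 were recovered, with 9 false calls. In the real comparison 23.3% of genes were called higher and 24.2% lower, far more than were changed here, so these figures need not hold for it. Replicates were not copies of 1 library (chi-square per degree of freedom at least 4.49).

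The antiviral genes, the other lists, the motifs and the tests were chosen with earlier results of these data known. By the rule for named genes, values of every library were printed for the 3 largest called differences between LPS/IFNγ and LPS in each direction, the 3 largest rises in dsHMGB1, up to 3 genes called in frHMGB1, and the pairs *Ifit3*/*Ifit3b* and *Oas1a*/*Oas1g*. Those of *Ifit1*, *Ifit2*, *Isg15*, *Bst2*, *Trim30a*, *Oas2*, *Ifnb1*, *Irf9* and *Cxcl9* were added after their values were seen. Alternatives were DESeq2's Wald test, RLE size factors, no filter, a test of a fold above 2, a filter of 1 CPM in 3 libraries, fits of the 2 compared conditions alone, protein-coding genes alone, a replicate block, mean log2 CPM for the leading condition and 15 fits without 1 library each. CPM means for the direct comparisons were added after seeing the data. The values of 1 gene of the signalling list are not reported here.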

Additional observations from a re-analysis of the deposited data

How the results depend on the processing

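Apart from *Bst2* and *Mx2*, the rises over PBS in dsHMGB1, LPS and LPS/IFNγ were called in each of 8 other fits. All 39 were called in all 15 fits without 1 library. *Bst2* in dsHMGB1 and in LPS/IFNγ was not called in the test of a fold above 2 and in the fit of the 2 compared conditions alone. *Mx2*, annotated as a polymorphic pseudogene, was not part of the fit of protein-coding genes alone. Calls between the stimuli depended on the fit. Genes lower in LPS/IFNγ than in LPS numbered 14, against 4 in the test of a fold above 2, 28 in the fit of the 2 conditions alone and 11 to 25 without single libraries, where the share of all genes called lower went from 9.36% to 1.04, 30.1 and 7.52 to 24.3%. Genes higher in LPS/IFNγ than in LPS numbered 1, against 0 without the low-count filter and in the test of a fold above 2, 4 in the fit of the 2 conditions alone and 0 to 2 without single libraries, with 16.3% of all genes against 5.42, 31 and 11.4 to 25.1% in the last 3. Genes lower in dsHMGB1 than in LPS numbered 23, against 1, 37 and 19 to 39 under those 3 settings (a fold above 2, 2 conditions alone, single libraries left out), with 10.6% of all genes against 1.43, 21.7 and 7.56 to 23.3%. Between dsHMGB1 and LPS/IFNγ the 6 higher genes became 2, 10 and 5 to 9, with 16.5% of all genes against 2.48, 27.7 and 13.1 to 27.9%, and the 13 lower genes 0, 24 and 10 to 22, with 16.7% against 4.27, 27.6 and 13.1 to 25.4%. The 1 gene higher in frHMGB1 than in PBS became 3 by DESeq2's Wald test and 0 with RLE size factors, no filter, the 1 CPM filter, a fold above 2, the 2 conditions alone, protein-coding genes alone or the replicate block, and 0 to 11 without single libraries, where 0.654 to 8.41% of all genes were. The highest count of each range, other than that of 2 which was also reached without PBS replicate 2, was the one without PBS replicate 3. The cause was not tested. The log2 fold change of frHMGB1 over PBS ran from -0.64 to 0.49 for *Isg15*, from -0.77 to 0.48 for *Bst2* and from -0.72 to 0.52 for *Ifi35* over the fits without 1 library, and the values above 0 were those without PBS replicate 3. By mean log2 CPM 1 gene was led by dsHMGB1. Same-numbered replicates showed no common deviation (correlations of -0.34 to 0.34, 6 of 15 libraries closest to their own number). With 3 libraries per condition these values cannot show that the numbers pair nothing. With the replicate block 13 genes were lower and 1 was higher in LPS/IFNγ than in LPS, where 1450 and 2598 of the 16919 genes tested were. In that fit 24 were lower in dsHMGB1 than in LPS, where 1669 of all genes were. Between dsHMGB1 and LPS/IFNγ 6 were higher and 12 lower in dsHMGB1, where 2651 and 2720 of all genes were. The limits are 1 pool of cells, 1 time point, counting that cannot separate near copies, and an LPS dose that may differ between conditions.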
